A study of Rattus norvegicus with 24 samples.

Results

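The departure from additivity of a heroin regimen and a preceding LPS regimen was measured gene by gene in the nucleus accumbens (NAc) of male rats. For each gene the interaction was the heroin effect in LPS-pretreated rats minus the heroin effect in saline-pretreated rats, (LPS-Heroin minus LPS-Saline) minus (Saline-Heroin minus Saline-Saline), on the log2(FPKM + 0.1) scale. FPKM is the number of reads scaled by gene length and by the library's mapped reads. The interaction was computed for every gene with a mean of at least 0.5 FPKM, which left 15113 of the 32545 genes, and in 16 of the 24 libraries of the series. A positive interaction means that LPS-Heroin lay above what the 2 single treatments added up to, and a negative interaction means that it lay below.

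The 16 libraries came from 4 groups of 4 Sprague dawley rats, all male and 8 weeks old on arrival. Each rat received 5 intraperitoneal injections of saline or of 250 ug/kg lipopolysaccharide (LPS), a component of the bacterial outer membrane, spread over 2 weeks. According to the labels, injections of saline or heroin on 5 days followed 1 week later, whereas the study's methods describe a shorter interval. The heroin dose rose by day from 1 to 5 mg/kg, and the NAc, core and shell together, was taken after the final injection, 1 hour later according to the labels, whereas the study's methods place a short locomotor test of all rats before euthanasia. Saline-Saline rats received neither agent, LPS-Saline and Saline-Heroin rats 1 of the 2 and LPS-Heroin rats both, so all animals shared the injection schedule and handling. The other 8 libraries, from rats that had self-administered heroin or saline intravenously (Heroin-SA and Saline-SA), served only as separate libraries to set beside the interaction.

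LPS is recognised by Toll-like receptor 4 on microglia and blood vessel cells, and activates NF-kB and the transcription of cytokines. Heroin is converted in the body to morphine, which acts on the mu-opioid receptor, a Gi-coupled receptor that lowers cAMP and neuronal excitability. The NAc is the ventral part of the striatum and consists mainly of GABAergic medium spiny neurons that express dopamine receptors and the opioid peptides enkephalin or dynorphin, among oligodendrocytes, astrocytes, microglia and vessels.

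Assigned reads ranged from 12312878 to 18850240 per library, and 6.82% to 9.10% of them came from mitochondrial genes. The medium spiny neuron markers Ppp1r1b, Penk and Drd1 averaged 691, 417 and 58.8 FPKM in Saline-Saline, so the striatal markers were present. Markers of neighbouring structures also differed between libraries. The mean log2 level of the septum and ventral forebrain list was 2.96 in Saline-Saline and 1.91 in LPS-Heroin, Saline-Saline replicate 1 was high in the choroid plexus list (2.43), and LPS-Saline replicate 4 was high in the fibroblast and mural cell list (3.18, against 1.22 to 1.54 in the other LPS-Saline libraries). The part of these differences in the interactions was not tested, and values without single libraries are given where they matter. The tissue was whole NAc, in which fewer cells of a type and less RNA per cell cannot be told apart.

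The interaction reached an unadjusted p of 0.05 and a size of 1.3-fold (0.378 on the log2 scale) in 349 genes, 2.31% of those tested, of which 191 (1.26%) were positive and 158 (1.05%) negative. These are referred to as called genes. In total 607 genes, 4.02% of those tested, had an unadjusted p under 0.05 in the limma fit across all genes. With no interaction in any gene, that limit would pass a share of about 0.05, so the count was no excess. No gene had a Benjamini-Hochberg adjusted p under 0.05 in limma. The smallest adjusted p was 0.163, for Mir127, a microRNA gene with a mean of 0.938 reads, and the next was 0.992, which every gene named below as called shared. The called genes are therefore a ranking of the largest departures and not a set of established ones. Among the 12339 genes with a mean of at least 50 reads, 214 were called (103 positive and 111 negative), with median interactions of 0.56 and -0.54. The median standard error (SE) of these genes was 0.16, so that an interaction had a 95% interval of about 0.341 to each side. Interactions are given below with their SE and group levels with the SD of 4 libraries.

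Low counts were common among the called genes. Of the 912 genes tested with a mean of under 10 reads, 65 were called (7.13%, 42 positive and 23 negative), and 44 of the 626 small RNA genes were called (7.03%, with a median of 3.91 reads), against 269 of the 13817 protein-coding genes (1.95%). The genes named below were, on each side, the 12 with the smallest p and, of the remaining genes, the 3 with the largest interaction, all with at least 50 reads on average, together with every called member of the gene lists, with its reads where they were fewer.

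In the median of the called genes with a positive interaction, the single treatments lay below Saline-Saline and the combined treatment lay near it. The median difference from Saline-Saline over these 191 genes was -0.39 on the log2 scale for LPS-Saline, -0.45 for Saline-Heroin and -0.08 for LPS-Heroin. The heroin effect was negative without LPS and positive after LPS in 173 of them (90.6%). In the called genes with a negative interaction, the same medians were 0.33, 0.35 and 0.02, and the heroin effect was positive without LPS and negative after LPS in 149 of 158 (94.3%). The heroin effect changed sign in 45.6% of all genes tested, and the larger shares follow largely from choosing genes by the interaction. LPS-Heroin lay within 1.3-fold of Saline-Saline in 142 of the positive (74.35%) and 120 of the negative genes (75.95%). Both shares were below the 84.9% of all genes, so a combined level near Saline-Saline was not particular to the called genes. These differences have no test of their own because the interaction that chose the genes contains the same libraries.

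Complete separation by treatment was rare. In 3 genes, 0.0199% of those tested, all 8 libraries of the single treatments lay below all 8 libraries of Saline-Saline and LPS-Heroin, and in 1 gene, 0.00662%, they all lay above. These 4 genes were looked up after their values were seen. Mrpl14, a protein of the mitochondrial ribosome, averaged 21.8 FPKM in Saline-Saline and 22.2 in LPS-Heroin, with LPS-Saline at 18.9 and Saline-Heroin at 19.98 (interaction 0.36 ± 0.09 SE). S100a16, a calcium-binding protein of the S100 family, averaged 65.6 FPKM in Saline-Saline, 59.8 and 58.7 under LPS and heroin alone and 64.7 under both (0.28 ± 0.08). Both lay below the 1.3-fold limit. The uncharacterised RGD1306739 averaged 7.43, 5.61, 5.97 and 6.91 FPKM in that order and was called (0.59). The single gene in the other direction was the unnamed model AABR07050417.1 (-0.66).

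The 2 heroin effects share no library and can be set side by side. Across the 15113 genes, the heroin effect without LPS and the heroin effect after LPS were weakly related, with 0.0724 for Pearson's r and 0.138 for Spearman's rho. Among the genes with at least 50 reads r was 0.188. These describe genes of the same libraries, which are not independent. Of the genes tested, 453 (3.0%) were called for heroin without LPS and 316 (2.09%) for heroin after LPS. Both effects were called in 35 genes, 7.73% of the first set and 11.1% of the second, and 27 of the 35 changed in the same direction. The LPS effect was called in 343 genes (2.27%) without heroin and in 304 (2.01%) with heroin, both effects were called in 21 genes (6.12% and 6.91% of the sets), of which 11 kept their direction, and r over all genes was 0.0737. No gene had an adjusted p under 0.05 in limma for any of the 4 effects, with 1007, 759, 1008 and 610 genes at an unadjusted p under 0.05, in the order given.

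**Figure D1:**
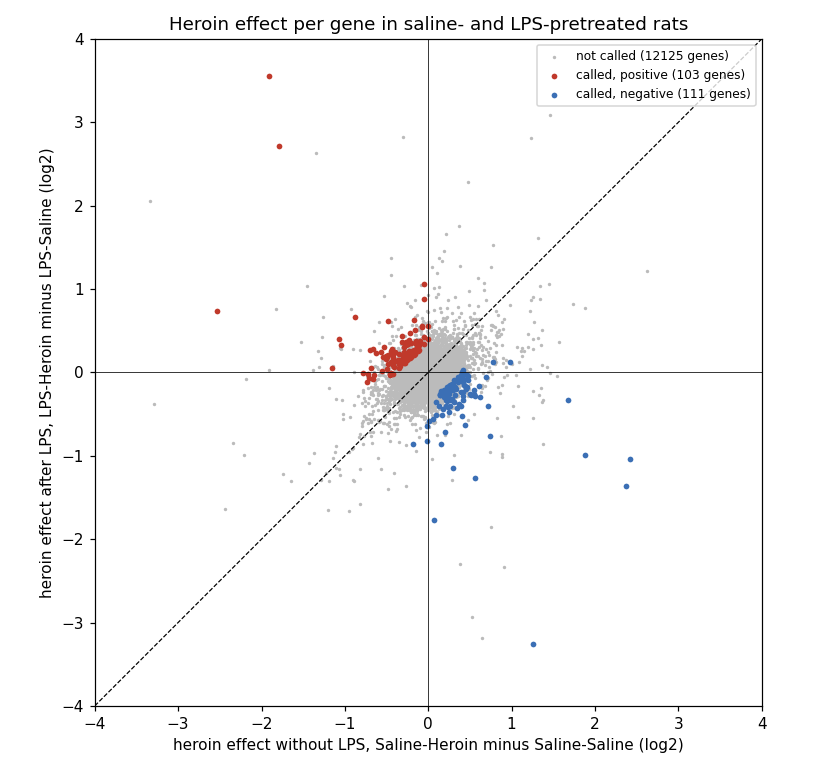
Each point is 1 of the 12339 genes with at least 50 reads, placed by its heroin effect without LPS (horizontal, log2) and its heroin effect after LPS (vertical, log2), and the dashed diagonal marks equal effects, that is, no interaction. The 103 called genes with a positive interaction (red) lie mostly in the upper left part of the plot, and the 111 with a negative interaction (blue) mostly in the lower right.

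The promoters of 5 genes on which the description below turns are shown to give their sequence context: the 2 genes with the smallest p on each side that had a single promoter in the RefSeq table, and Opalin, the called gene of the myelin list. Each runs from 250 bases before to 50 bases after the annotated start, 5′ to 3′ on the gene's strand, in the RefSeq build GRCr8, which is not the build of the expression files. Capitals mark matches, on either strand, to the cAMP response element (TGACGTCA), the AP-1 site (TGANTCA), the GC box (GGGCGG) or the TATA box (TATAAA). The promoters were Ppih at chr5:138209531-138209830 on the minus strand, Saysd1 at chr15:4273052-4273351 on the plus strand, Bivm at chr9:53761555-53761854 on the plus strand, Epha6 at chr11:53226534-53226833 on the plus strand and Opalin at chr1:249858141-249858440 on the minus strand.
Ppih: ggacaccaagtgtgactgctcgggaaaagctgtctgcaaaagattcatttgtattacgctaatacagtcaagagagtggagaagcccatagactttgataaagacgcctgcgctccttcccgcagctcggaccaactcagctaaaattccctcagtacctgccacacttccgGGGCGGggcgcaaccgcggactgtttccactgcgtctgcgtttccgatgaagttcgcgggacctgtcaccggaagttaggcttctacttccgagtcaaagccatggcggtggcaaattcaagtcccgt
Saysd1: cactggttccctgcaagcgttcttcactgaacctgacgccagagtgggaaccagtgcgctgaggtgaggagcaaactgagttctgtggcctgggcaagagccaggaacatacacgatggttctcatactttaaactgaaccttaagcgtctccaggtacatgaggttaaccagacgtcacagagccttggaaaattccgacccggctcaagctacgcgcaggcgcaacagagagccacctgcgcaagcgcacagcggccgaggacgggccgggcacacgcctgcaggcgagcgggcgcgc
Bivm: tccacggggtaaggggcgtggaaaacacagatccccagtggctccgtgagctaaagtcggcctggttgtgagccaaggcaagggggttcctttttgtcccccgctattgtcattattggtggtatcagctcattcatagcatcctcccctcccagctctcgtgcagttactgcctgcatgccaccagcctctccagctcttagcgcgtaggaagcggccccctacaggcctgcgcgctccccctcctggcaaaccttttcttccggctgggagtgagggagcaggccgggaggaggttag
Epha6: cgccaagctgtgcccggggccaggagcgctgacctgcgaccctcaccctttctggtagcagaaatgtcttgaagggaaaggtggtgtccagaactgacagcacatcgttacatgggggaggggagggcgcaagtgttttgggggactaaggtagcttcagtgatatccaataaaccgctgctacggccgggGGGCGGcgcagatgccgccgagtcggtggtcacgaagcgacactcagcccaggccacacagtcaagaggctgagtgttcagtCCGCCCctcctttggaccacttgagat
Opalin: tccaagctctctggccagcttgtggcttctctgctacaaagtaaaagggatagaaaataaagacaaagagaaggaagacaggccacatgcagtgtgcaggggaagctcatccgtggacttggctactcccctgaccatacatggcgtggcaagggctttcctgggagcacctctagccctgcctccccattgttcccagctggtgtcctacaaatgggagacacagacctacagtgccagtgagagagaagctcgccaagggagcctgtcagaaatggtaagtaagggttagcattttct

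Ppih held 1 GC box and Epha6 held 2, and the other 3 promoters held none of the 4 motifs. The Opalin promoter was the poorest in CpG, with 3 CpG in 300 bases against 20 in Ppih, 22 in Saysd1, 13 in Bivm and 17 in Epha6. Among called genes with at least 50 reads, 63 of the 100 with distinct symbols and a positive interaction and 67 of the 109 with a negative one matched the table. A GC box was found in 65.1% of the positive and 61.2% of the negative promoters, against 64.3% of the 8341 matched genes tested. The cAMP response element was found in 0 of 63 positive and 2 of 67 negative promoters (3.27% of those tested), and the AP-1 site in 2 and 4 (4.41% of those tested). The TATA box was found in 8 positive (12.7%) and 5 negative promoters (7.46%), against 6.05%. Over all 33469 promoters of the table the shares were 33.1% for the GC box, 1.83% for the cAMP response element, 7.33% for the AP-1 site and 14.2% for the TATA box. A match is a description of these letters, and nothing on the binding of a factor was measured.

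On the positive side, the genes of RNA processing and transcription differed by small amounts between tight groups. Ppih, a cyclophilin of the spliceosomal small nuclear RNA particle at chr5:138352916-138361702 (rn6), stood at 14.9, 17.8, 15.6 and 14.9 FPKM in the Saline-Saline libraries, with LPS-Saline at 12.4, 14.6, 12.8 and 14.4, Saline-Heroin at 13.2, 14.04, 11.6 and 12.5 and LPS-Heroin at 15.3, 14.4, 14.5 and 14.6. All Saline-Saline libraries lay above all libraries of both single treatments, and LPS-Heroin lay above all Saline-Heroin libraries while overlapping LPS-Saline. The interaction was 0.41 ± 0.11 (SE), with heroin effects of -0.30 without LPS and 0.12 after LPS. Its call was kept in 13 of 16 fits without 1 library and was lost with the length trend described below removed. Thap1, a zinc-finger transcription factor whose gene is mutated in a form of dystonia, averaged 8.44 ± 1.12 FPKM in Saline-Saline, with LPS-Saline at 6.56 ± 0.662, Saline-Heroin at 6.46 ± 0.929 and LPS-Heroin at 7.24 ± 0.566 (SD, n = 4), with an interaction of 0.52 ± 0.17. The neighbouring zinc-finger genes Zfp865 and Zfp580 on chromosome 1 had interactions of 0.62 ± 0.19 and 0.39 ± 0.12. They differed in shape, since Zfp580 was lowest in LPS-Saline (34.1 ± 2.84 FPKM) and Zfp865 lowest in Saline-Heroin (2.77 ± 0.539), and the call of Zfp580 was lost in 7 of 16 fits without 1 library. Hdac6, a cytoplasmic deacetylase of tubulin, had an interaction of 0.95 ± 0.44 with wide groups, and was no longer called in 12 of 16 fits that left out 1 library. Ppih, Zfp865 and Hdac6 overlap another annotated gene, so their reads may be shared.

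Genes of glia and lipid metabolism followed. Fabp7, the brain fatty acid-binding protein of astroglia, stood at 91.1, 102, 61.2 and 81.8 FPKM in the Saline-Saline libraries, with LPS-Saline at 61.3, 81.6, 64.7 and 70.2, Saline-Heroin at 73.6, 62.7, 81.2 and 67.9 and LPS-Heroin at 105, 90.6, 103 and 87.6. All 4 LPS-Heroin libraries exceeded all 8 libraries of the single treatments, while Saline-Saline spread over the whole range. Its interaction of 0.69 ± 0.19 was called without each library in turn, and its heroin effects were -0.22 without LPS and 0.48 after LPS. The list of astrocyte markers, which does not hold Fabp7, did not share this direction. Its median was -0.08, with 7 of 15 genes positive and none called, and no list of lipid metabolism was made. Srebf1, the transcription factor of sterol and fatty acid synthesis, stood at 25.5, 21.6, 21.8 and 21.2 FPKM in the Saline-Saline libraries, with LPS-Saline at 18.5, 19.2, 21.5 and 16.4, Saline-Heroin at 15.5, 18.5, 15.4 and 17.5 and LPS-Heroin at 18.1, 19.2, 16.8 and 20.5. Here Saline-Saline lay above all Saline-Heroin and LPS-Heroin libraries, so the positive interaction (0.41 ± 0.13) came with a combined level that stayed at the level of the single treatments, and it was no longer called without Saline-Saline replicate 1, among others. Srebf1 overlaps Rai1 on the other strand. Phgdh, which opens the synthesis of serine from glycolysis, averaged 55.2 ± 4.52 FPKM in Saline-Saline, with LPS-Saline at 44.4 ± 7.70, Saline-Heroin at 47.03 ± 4.34 and LPS-Heroin at 52.8 ± 5.72 (SD, n = 4), with an interaction of 0.49 ± 0.17. Etnk2, an ethanolamine kinase of phospholipid synthesis, averaged 3.81, 2.69, 2.34 and 2.54 FPKM in the same order (0.64 ± 0.28), another gene whose LPS-Heroin level stayed with the single treatments, and its call was lost in 9 of 16 fits without 1 library.

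Opalin, a membrane glycoprotein of myelinating oligodendrocytes at chr1:260324028-260341723 (rn6), stood at 106, 117, 71.3 and 80.4 FPKM in the Saline-Saline libraries, with LPS-Saline at 96.9, 70.2, 68.9 and 70.4, Saline-Heroin at 50.5, 60.9, 58.3 and 86.97 and LPS-Heroin at 97.5, 91.6, 98.4 and 61.6. In Saline-Heroin 3 of the 4 libraries lay below all Saline-Saline libraries, and replicate 4 of Saline-Heroin and replicate 4 of LPS-Heroin each lay with the opposite group. The interaction was 0.72 ± 0.28, called without each library in turn. Sirt2, a deacetylase abundant in oligodendrocytes, had a smaller interaction (0.39 ± 0.17) that was lost in 11 of 16 fits without 1 library. Cx3cr1, the fractalkine receptor that marks microglia, averaged 14.5 ± 3.05 FPKM in Saline-Saline, with LPS-Saline at 12.9 ± 1.78, Saline-Heroin at 9.95 ± 2.92 and LPS-Heroin at 12.9 ± 1.63 (SD, n = 4). Its interaction of 0.57 ± 0.26 was likewise lost in 11 of the 16 fits. The list of microglial markers as a whole did not share this direction, with a median of -0.01 and 9 of 19 genes positive. Cx3cr1 was its highest gene, and its lowest, P2ry12, had -0.67 and was not called.

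Endothelial genes were among the smallest p values. Cav1, the coat protein of caveolae and abundant in endothelium, stood at 11.97, 13.2, 11.01 and 10.7 FPKM in the Saline-Saline libraries, with LPS-Saline at 9.44, 10.02, 9.98 and 9.06, Saline-Heroin at 9.14, 9.49, 9.22 and 9.12 and LPS-Heroin at 11.1, 10.3, 9.10 and 10.2. The Saline-Saline libraries lay above all libraries of both single treatments, and LPS-Heroin spread between them. The interaction of 0.41 ± 0.11 was not called without Saline-Saline replicate 2 or LPS-Heroin replicate 1. Rasip1, a Ras-interacting protein needed for vessel lumens, averaged 7.18 ± 0.694 FPKM in Saline-Saline, with LPS-Saline at 6.24 ± 0.503, Saline-Heroin at 5.96 ± 0.772 and LPS-Heroin at 7.13 ± 0.546 (SD, n = 4), with an interaction of 0.46 ± 0.15. The list of endothelial and barrier markers as a whole did not share this pattern, with a median of 0.00 over 18 genes, 9 of them positive. C1ql1, a secreted synapse organiser of the C1q family, averaged 21.4 ± 4.15 FPKM in Saline-Saline, with LPS-Saline at 16.6 ± 2.06, Saline-Heroin at 17.5 ± 1.25 and LPS-Heroin at 20.9 ± 2.34 (SD, n = 4), and its interaction of 0.60 ± 0.18 was called without each library in turn. Lhfpl5, a membrane protein known from the mechanotransduction complex of hair cells, was lowest in LPS-Saline (5.96 ± 0.497 FPKM against 8.02 ± 0.378 in Saline-Saline, without overlap of the libraries) and had an interaction of 0.43 ± 0.14.

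Mitochondrial enzymes included genes whose libraries stood at separate levels. Mccc2, a subunit of the carboxylase of leucine breakdown at chr2:30175018-30246010 (rn6), stood at 31.3, 33.8, 21.1 and 17.2 FPKM in the Saline-Saline libraries, with LPS-Saline at 17.4, 18.1, 19.2 and 18.2, Saline-Heroin at 16.95, 18.3, 16.6 and 19.1 and LPS-Heroin at 21.3, 41.4, 19.8 and 35.3. The 8 libraries of the single treatments lay between 16.6 and 19.2 FPKM, whereas Saline-Saline and LPS-Heroin each held 2 libraries well above them and 2 near the single treatments. Its interaction was 1.11 ± 0.32, and it was not called when all 24 libraries were fitted together. High and low libraries of Mccc2 also occurred among the self-administering rats. The Saline-SA libraries stood at 20.6, 37.4, 73.0 and 19.5 FPKM and the Heroin-SA libraries at 15.2, 16.8, 18.3 and 69.5. Cox5b, a subunit of cytochrome c oxidase, stood at 367, 376, 413 and 423 FPKM in the Saline-Saline libraries, with LPS-Saline at 267, 390.4, 263 and 281, Saline-Heroin at 337, 247, 301 and 279 and LPS-Heroin at 239.6, 400.3, 412 and 393. The Saline-Saline libraries lay above all Saline-Heroin libraries, and 1 library each of LPS-Saline and LPS-Heroin lay with the opposite group. The interaction was 0.70 ± 0.23. Cmc1, an assembly factor of the same enzyme, was highest in Saline-Saline (8.70 ± 3.43 FPKM) and had an interaction of 1.21 ± 0.45, although it overlaps a U6 RNA gene.

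The largest positive interactions among the named genes came with wide groups. Lrrc23, a protein of the radial spokes of motile cilia, stood at 1.76, 4.68, 8.48 and 1.65 FPKM in the Saline-Saline libraries, with LPS-Saline at 5.49, 0.367, 1.23 and 0.257, Saline-Heroin at 0.185, 0.406, 0.312 and 1.88 and LPS-Heroin at 1.07, 4.55, 0.797 and 1.84. Its levels ranged from 0.185 to 8.48 FPKM with overlap between all groups, and the interaction of 3.27 ± 1.20 had the largest SE among the named genes. Pak2, a serine/threonine kinase of the cytoskeleton, had an interaction of 1.47 ± 0.56 and overlaps a small nucleolar RNA gene. Kcne2, an accessory potassium channel subunit of choroid plexus, and Relb, an NF-kB subunit, had 1.20 ± 0.55 (at a mean of 34.1 reads) and 0.59 ± 0.27, each lost without most single libraries. A model of Rps29, a ribosomal protein, had 1.87 ± 0.61 at a mean of 3.25 reads, and is 1 of several models of that symbol. Saysd1, which had one of the smallest p values of this side, stood at 9.36, 7.72, 10.2 and 8.58 FPKM in the Saline-Saline libraries, with LPS-Saline at 6.98, 6.86, 7.54 and 9.15, Saline-Heroin at 7.78, 7.87, 9.37 and 8.82 and LPS-Heroin at 12.1, 9.24, 12.6 and 10.9. All LPS-Heroin libraries lay above all LPS-Saline libraries, and the interaction was 0.63 ± 0.17.

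**Figure D2:**
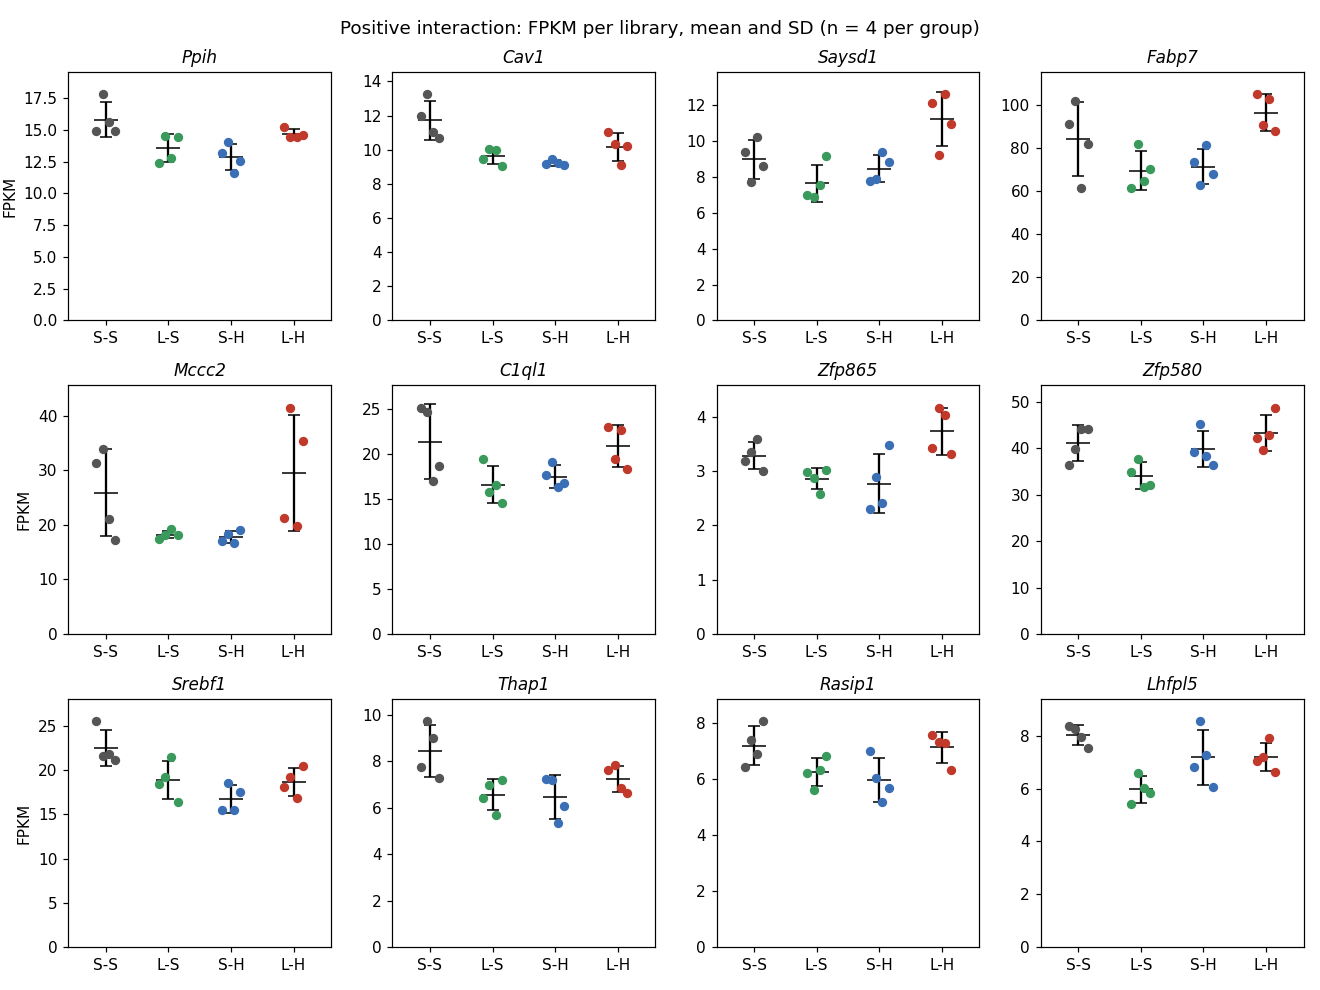
FPKM (vertical axis, from 0) of the 12 genes with a positive interaction and the smallest p, with 1 point per library, the horizontal line at the group mean and the bar at ± SD (n = 4 per group, with S-S for Saline-Saline, L-S for LPS-Saline, S-H for Saline-Heroin, L-H for LPS-Heroin). In Fabp7 the 4 L-H points lie above all L-S and S-H points, whereas in Srebf1 L-H stays with the single treatments.

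Among the named genes on the negative side were receptors and membrane proteins of neurons. Epha6, an ephrin-A receptor tyrosine kinase at chr11:42259761-42843865 (rn6), stood at 6.65, 5.88, 7.70 and 8.07 FPKM in the Saline-Saline libraries, with LPS-Saline at 9.59, 7.67, 8.58 and 8.38, Saline-Heroin at 9.10, 8.75, 10.2 and 12.1 and LPS-Heroin at 6.58, 8.47, 6.70 and 6.85. All Saline-Heroin libraries lay above all Saline-Saline and all LPS-Heroin libraries, and LPS-Saline overlapped all 3 of the other groups. The interaction was -0.76 ± 0.18 (SE), with heroin effects of 0.50 without LPS and -0.26 after LPS. Adgrl3, a latrophilin adhesion receptor of the synapse, averaged 13.5 ± 1.41 FPKM in Saline-Saline, with LPS-Saline at 14.5 ± 0.567, Saline-Heroin at 14.9 ± 1.49 and LPS-Heroin at 12.2 ± 0.978 (SD, n = 4), with an interaction of -0.40 ± 0.12 that was lost in 6 of 16 fits without 1 library. Its call was also lost with a pseudocount of 1, with equal library medians and with the length trend described below removed. Ptchd1, a synaptic membrane protein with a patched domain, averaged 4.19, 4.93, 4.90 and 4.05 FPKM in the same order (-0.50 ± 0.15).

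Htr1f, a Gi-coupled serotonin receptor with a mean of 38.1 reads, stood at 1.46, 1.60, 1.49 and 1.22 FPKM in the Saline-Saline libraries, with LPS-Saline at 2.18, 2.02, 1.99 and 2.18, Saline-Heroin at 2.10, 1.87, 2.55 and 2.04 and LPS-Heroin at 1.72, 1.90, 1.42 and 1.41. All Saline-Saline libraries lay below all libraries of both single treatments, and LPS-Heroin lay below all LPS-Saline libraries. The interaction of -0.90 ± 0.21 was called without each library in turn. Acvr2a, an activin receptor, stood at 17.5, 16.7, 20.6 and 16.5 FPKM in the Saline-Saline libraries, with LPS-Saline at 21.4, 18.2, 18.8 and 19.2, Saline-Heroin at 22.8, 19.8, 22.8 and 18.4 and LPS-Heroin at 17.4, 15.6, 15.1 and 18.6, with an interaction of -0.45 ± 0.13. Inhbb, the beta B subunit of its ligands activin B and inhibin B, was also called (-1.07 ± 0.47) but lost the call without most single libraries. The channel genes Kcnj2, an inward rectifier of potassium, and Cacna1c, the pore of the L-type calcium channel, had -0.41 ± 0.19 and -0.40 ± 0.18 and lost the call in 12 and 10 of the 16 fits without 1 library.

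Arhgap32, a postsynaptic GTPase-activating protein, took another shape. It stood at 33.5, 36.2, 41.4 and 38.6 FPKM in the Saline-Saline libraries, with LPS-Saline at 50.5, 44.3, 42.9 and 45.4, Saline-Heroin at 50.8, 41.9, 53.5 and 52.2 and LPS-Heroin at 47.1, 47.4, 45.1 and 44.4. All treated libraries lay above all Saline-Saline libraries, and LPS-Heroin (46.00 ± 1.49 FPKM, SD, n = 4) was at the level of either treatment alone rather than above it, which gave the interaction of -0.39 ± 0.12. Ankrd33b followed the same shape, with 4.37 FPKM in Saline-Saline against 7.36, 7.38 and 8.15 in the treated groups (-0.65 ± 0.27). Mt-nd6, a complex I subunit encoded on the light strand of mitochondrial DNA, also averaged 112 FPKM in Saline-Saline against 162, 150.2 and 159.9 (-0.46 ± 0.18). Mt-nd6 overlaps Mt-nd5 on the other strand, and Arhgap32 overlaps another gene. The calls of Arhgap32 and Ankrd33b were each kept in 12 of 16 fits without 1 library, and that of Mt-nd6 in 14. The call of Arhgap32 was also lost with equal library medians and with the length trend described below removed.

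Bivm, the gene with the smallest p on this side, at chr9:50892605-50919791 (rn6), stood at 11.6, 9.58, 11.3 and 10.1 FPKM in the Saline-Saline libraries, with LPS-Saline at 11.5, 11.03, 12.3 and 11.5, Saline-Heroin at 13.04, 12.3, 11.6 and 12.3 and LPS-Heroin at 9.31, 10.7, 9.50 and 9.38. All LPS-Heroin libraries lay below all libraries of both single treatments and within or just below the range of Saline-Saline. The interaction was -0.46 ± 0.11. Npl, the lyase that opens sialic acid breakdown, stood at 5.68, 5.17, 7.91 and 3.88 FPKM in the Saline-Saline libraries, with LPS-Saline at 7.95, 6.92, 7.78 and 6.96, Saline-Heroin at 7.59, 7.20, 6.96 and 7.43 and LPS-Heroin at 4.42, 5.51, 5.65 and 4.93. LPS-Heroin again lay below all single-treatment libraries, and the interaction was -0.93 ± 0.22. Chic1 was lower in all Saline-Saline libraries (2.19 ± 0.676 FPKM) than in all libraries of LPS-Saline (3.93 ± 1.16) and Saline-Heroin (3.56 ± 0.480), with an interaction of -1.12 ± 0.32.

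Genes of RNA and ribosome production were also present. Cstf2t, a variant of a polyadenylation factor, averaged 23.4 ± 3.27 FPKM in Saline-Saline, with LPS-Saline at 28.2 ± 1.93, Saline-Heroin at 28.6 ± 1.26 and LPS-Heroin at 25.6 ± 1.98 (SD, n = 4), with an interaction of -0.44 ± 0.13. Bdp1, a subunit of the TFIIIB factor of RNA polymerase III, had an interaction of -0.66 ± 0.20. It lies beside Mccc2 on chromosome 2, at chr2:30250633-30340208, and had the opposite sign. Sdad1, a factor of ribosome assembly, had -0.51 ± 0.15 and overlaps a U6atac RNA gene. Mrpl1, a protein of the mitochondrial ribosome, had -1.45 ± 0.64, and -0.90 without the LPS-Heroin library at 0.400 FPKM. It lost the call in 10 of 16 fits without 1 library. Chordc1, a co-chaperone of Hsp90, had -0.42 ± 0.18 with 1 Saline-Heroin library at 35.1 FPKM and the others at or below 22.8, and lost the call in 6 of the 16 fits.

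Chchd10, a protein of the mitochondrial intermembrane space, had the largest negative interaction among the named genes (-3.74 ± 0.91). Predicted gene models that the naming rule left out, and that were looked up after their values were seen, reached -4.51 ± 1.48 (LOC100911034) and, on the positive side, 5.47 ± 2.10 (LOC100911363). It stood at 11.5, 20.2, 16.02 and 17.6 FPKM in the Saline-Saline libraries, with LPS-Saline at 16.6, 89.1, 26.1 and 98.2, Saline-Heroin at 125, 17.8, 107 and 199.7 and LPS-Heroin at 17.00, 17.1, 19.05 and 15.5. All Saline-Saline and LPS-Heroin libraries were low, and 2 of 4 LPS-Saline and 3 of 4 Saline-Heroin libraries were several times higher. The same 2 levels appeared among the self-administering rats, where the 4 Saline-SA libraries stood at 248, 20.4, 237 and 150.0 FPKM and the Heroin-SA libraries at 97.7, 26.95, 27.9 and 30.7. In all 24 libraries 9 lay above the geometric midpoint of 53.4 FPKM, including 3 of 4 from Saline-SA rats, so high levels were not confined to LPS or heroin. Hs6st3, a sulfotransferase of heparan sulfate, averaged 3.91 ± 1.26 FPKM in Saline-Saline, with LPS-Saline at 7.12 ± 0.752, Saline-Heroin at 6.55 ± 1.64 and LPS-Heroin at 4.97 ± 3.41 (SD, n = 4), with an interaction of -1.51 ± 0.53.

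Immune and monoamine genes on this side had low levels. Ikbkg, the regulatory NEMO subunit of the IkB kinase, averaged 3.53 ± 0.188 FPKM in Saline-Saline, with LPS-Saline at 4.59 ± 0.963, Saline-Heroin at 4.75 ± 0.583 and LPS-Heroin at 4.27 ± 0.508 (SD, n = 4), with an interaction of -0.50 ± 0.21. Its call was lost in 6 of 16 fits without 1 library. Tap2, a peptide transporter of antigen presentation with a mean of 24.9 reads, had -1.17 ± 0.53 and lost the call in 10 of the 16. Gch1, the entry enzyme of tetrahydrobiopterin synthesis with a mean of 12.6 reads, had -1.56 ± 0.59. The 4 LPS-Heroin values of Gch1 (0.135, 0.431, 0.287 and 0.257 FPKM) lay below all Saline-Heroin values and overlapped the Saline-Saline values.

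**Figure D3:**
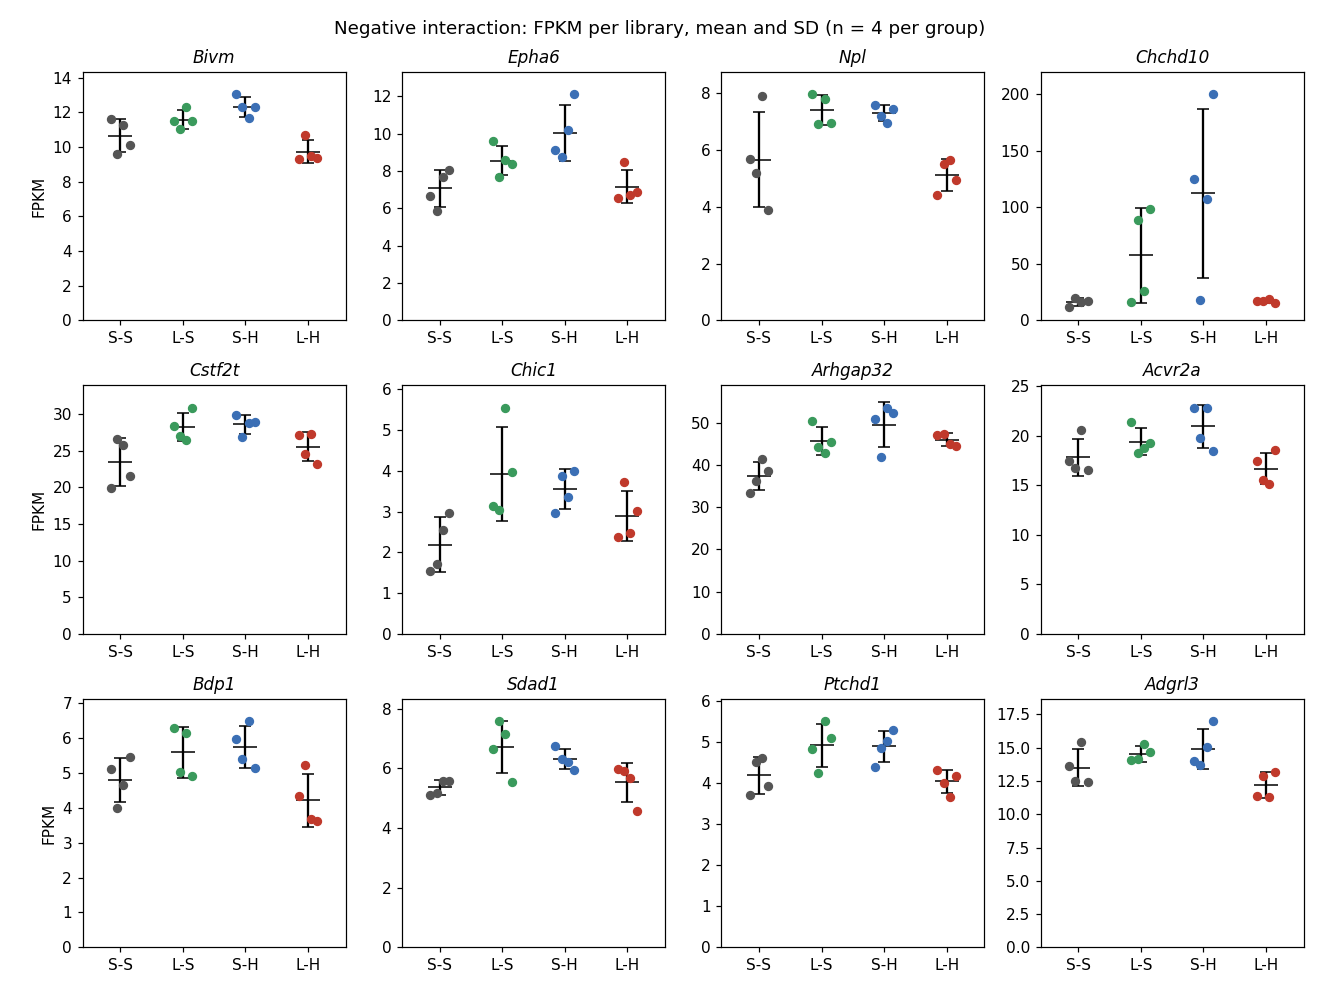
FPKM (vertical axis, from 0) of the 12 genes with a negative interaction and the smallest p, with 1 point per library, the line at the group mean and the bar at ± SD (n = 4 per group, with S-S for Saline-Saline, L-S for LPS-Saline, S-H for Saline-Heroin and L-H for LPS-Heroin). Bivm and Npl have all L-H points below the L-S and S-H points, Arhgap32 has all treated points above S-S, and Chchd10 shows separate high and low libraries within L-S and S-H.

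Functions were described with 41 gene lists, 12 of cell type markers, 28 of pathways or complexes and 1 taken from the study. The 868 genes tested in the cell type and pathway lists, the study's list left out, included 9 called positive (1.04%, against 1.26% of all genes) and 8 called negative (0.922%, against 1.05%), shares close to those of all genes. The median interaction over all genes was near 0, at -0.00496, with 48.9% positive, and 11 lists had a positive and 30 a negative median. The lists below are described by medians and counts, and no test of a list was made.

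On the positive side, the list of oligodendrocytes and myelin stood furthest from 0, with a median of 0.38 and 20 of 21 genes positive, of which 1, Opalin, was called. The median heroin effect of these genes was -0.33 without LPS and 0.05 after LPS, and the median LPS effect without heroin was -0.23. Among myelin proteins, Mbp, the myelin basic protein, had an interaction of 0.61 ± 0.33 (SE), Mog 0.37 ± 0.30 and Mobp 0.35 ± 0.34. Pdgfra, the marker of precursors, was the exception with -0.04 ± 0.12. The mean log2 level of the list was 6.61, 6.59, 6.14 and 6.29 in the Saline-Saline libraries, with LPS-Saline at 6.52, 6.06, 6.12 and 6.04, Saline-Heroin at 5.75, 6.18, 5.94 and 6.47 and LPS-Heroin at 6.30, 6.28, 6.30 and 5.92. The groups overlapped, and LPS-Heroin replicate 4 lay below the other 3 of its group. The interaction of this mean level was 0.34 ± 0.24 (SE). Without single libraries the median ranged from 0.24 (without Saline-Heroin replicate 1) to 0.53 (without Saline-Heroin replicate 4). The septum and ventral forebrain list also had a positive median (0.33, 11 of 14 positive), which was 0.01 without LPS-Saline replicate 1, and the part of neighbouring tissue in the myelin values was not tested.

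Lists of short, highly expressed genes were also positive, by small amounts. The cytosolic ribosomal proteins had a median of 0.10 with 69 of 81 positive, and the nuclear-encoded subunits of oxidative phosphorylation (OXPHOS) a median of 0.06 with 49 of 67 positive. Their medians were 0.05 and 0.02 once the trend with gene length described below was taken off each library. The ependyma and motile cilia list had a median of 0.32, which was -0.09 without Saline-Saline replicate 1, the library high in choroid plexus genes. In that choroid plexus list Ttr, the transthyretin carrier, had an interaction of 5.39 ± 2.99 that did not pass the test.

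On the negative side stood lists of neuronal genes, although lists of other kinds, such as heat shock and chaperones (-0.12), had medians of like size. The list of medium spiny neuron markers had a median of -0.13, with 18 of 20 genes negative and none called. This median ranged from -0.30 without Saline-Saline replicate 3 to -0.03 without Saline-Saline replicate 4. The mean log2 level of the list had an interaction of -0.16 ± 0.26 (SE). Its lowest gene was the striatal phosphodiesterase Pde10a (-0.39 ± 0.31). Opioid peptides and receptors had a median of -0.20 with 8 of 10 negative and none called, ranging from -0.31 without Saline-Saline replicate 3 to -0.11 without LPS-Heroin replicate 1. In this list Oprm1, the mu-opioid receptor, had -0.44 ± 0.45, Oprk1, the kappa-opioid receptor, -0.43 ± 0.29, Pdyn, the dynorphin precursor, -0.34 ± 0.30, and Penk, the enkephalin precursor, -0.22 ± 0.30. None of these 4 passed the test, and Pomc had the opposite sign (0.75 ± 0.40). GABA-A receptors had a median of -0.16 (10 of 14 negative), serotonin, muscarinic and cannabinoid receptors -0.15 (12 of 16), postsynaptic scaffolds and adhesion proteins -0.11 (23 of 29), cAMP signalling -0.11 (23 of 31), synaptic vesicle release -0.08 (27 of 38) and potassium channels -0.08 (39 of 58). In these 6 lists the only called genes were Htr1f and Kcnj2, and each median stayed negative without any single library. The mitochondrial-encoded OXPHOS genes had -0.13 with 10 of 11 negative, and 0.01 without Saline-Saline replicate 1.

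The lowest medians belonged to vessel-associated and blood cells and depended on single libraries. The fibroblast and mural cell list had a median of -0.42 with 15 of 20 negative, led by the contractile genes Acta2 (-1.71 ± 0.97) and Tagln (-1.54 ± 0.83). The red blood cell list had -0.35 with 5 of 5 negative. Without LPS-Saline replicate 4 these medians were -0.03 and 0.04. The first was -0.89 without Saline-Saline replicate 4, whose level on this list was 2.80 against 1.54 to 1.82 in the rest of its group, and the second was -0.63 without Saline-Heroin replicate 1. No gene of either list was called.

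Inflammatory functions, which LPS engages, had medians on both sides of 0. They were -0.06 for Toll-like receptor and NF-kB genes (Relb called positive and Ikbkg called negative), -0.11 for cytokines and chemokines, 0.03 for interferon-stimulated genes, 0.00 for complement, -0.12 for antigen presentation (-0.37 without Saline-Saline replicate 2 and 0.08 without Saline-Saline replicate 3), -0.01 for microglial and -0.08 for astrocyte markers. Relb and Ikbkg were among 18 tested Toll-like receptor and NF-kB genes. Tap2 (called negative) was among 14 of antigen presentation and Cx3cr1 (called positive) among 19 microglial genes. No gene was called among 22 cytokine and chemokine, 19 interferon-stimulated, 17 complement and 15 astrocyte genes. Of all genes tested 2.31% were called, and these few calls are not read as a result on the lists.

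The immediate early genes, which neuronal activity induces, had median heroin effects of -0.33 without LPS and -0.47 after LPS. In this list the mean log2 level had an interaction of 0.025 ± 0.285 (SE), and the genes ran from -0.39 (Homer1) to 0.34 (Egr2). Their median interaction was 0.03 (-0.19 without LPS-Heroin replicate 1 and 0.15 without LPS-Heroin replicate 3) with 12 of 23 positive and none called, while 9 of the 23 were called lower with heroin without LPS (1.77% of all genes) and 10 after LPS (1.11% of all genes). Fos averaged 29.5 FPKM in Saline-Saline, with LPS-Saline at 39.7, Saline-Heroin at 15.2 and LPS-Heroin at 21.96, that is, heroin effects of -0.96 without and -0.96 after LPS. Nr4a1, an orphan nuclear receptor, had -0.91 and -0.92, Arc, a regulator of AMPA receptor trafficking, -1.19 and -1.30, and Egr1, a zinc-finger factor, -0.60 and -0.57. The SE of the interaction of Fos was 0.41 and leaves room for an interaction of that size. Glucocorticoid response genes likewise had a median of 0.03, with 3 of 20 called higher with heroin after LPS (0.979% of all genes) and 0 of 20 without LPS (1.22%). The median heroin effect of that list was 0.12 after and 0.12 without LPS, and a difference between them was not tested.

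The list taken from the study held genes that it lists as shared by its comparisons. It was chosen on these samples and is not independent evidence of a direction. Its 21 genes tested had a median interaction of -0.22, with a median heroin effect of 0.52 without LPS and 0.11 after LPS. Heroin without LPS was called higher in 11 and lower in 6 of them, and heroin after LPS was called higher in 1 and lower in none. Etnk2 and Ankrd33b were its called genes for the interaction.

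**Figure D4:**
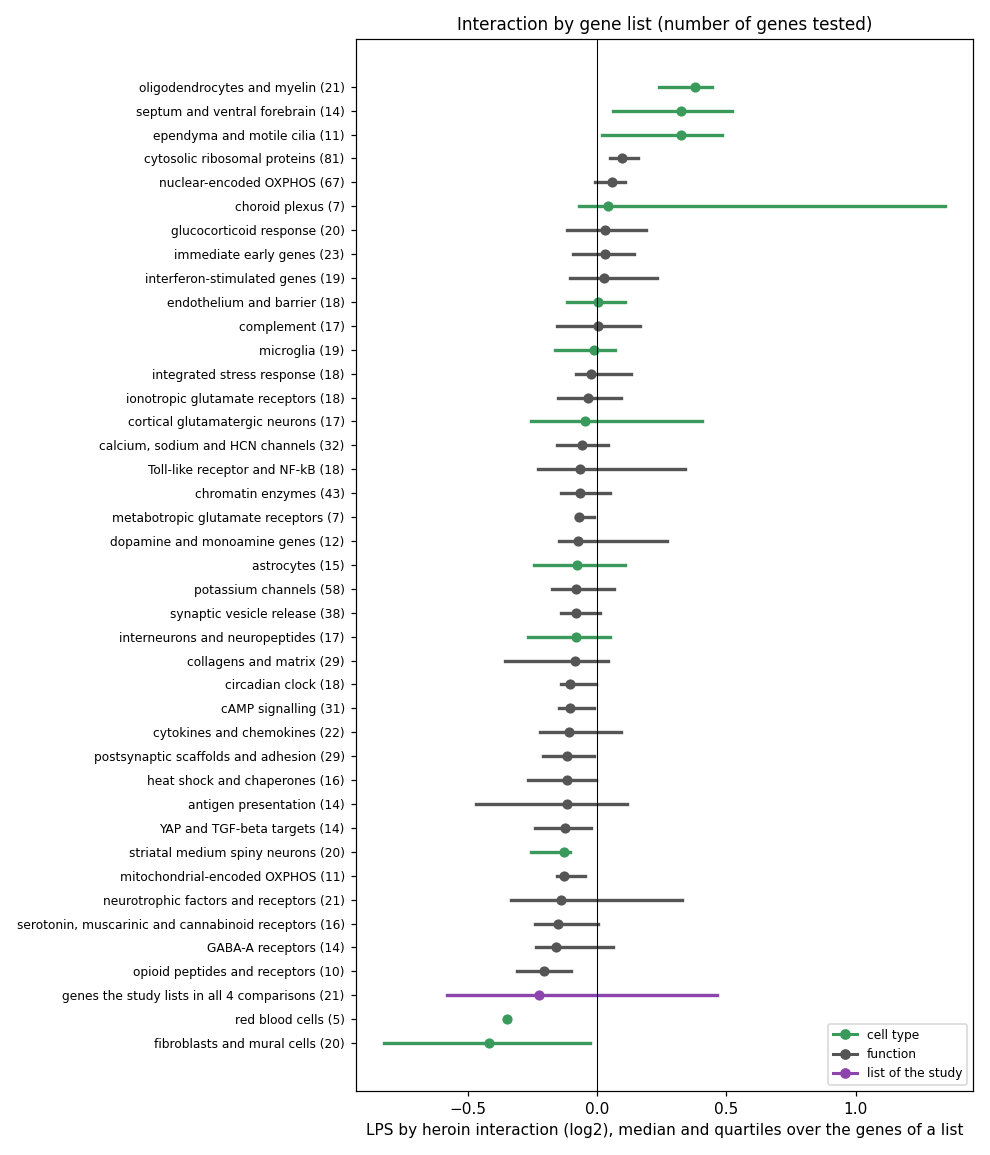
Median (point) and quartiles (line) of the interaction on the log2 scale (horizontal axis) over the genes tested in each of 41 lists, with the number of genes in parentheses and the kind of list in colour. Oligodendrocytes and myelin lie highest at 0.38 and fibroblasts and mural cells lowest at -0.42, and immediate early genes lie at 0.03.

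The interaction moved with gene length. Among the 12339 genes with at least 50 reads, the Spearman rho between interaction and length was -0.200, a description across genes of the same libraries. The median interaction was 0.05 in the shortest of 10 length groups and -0.09 in the longest. Called genes with a positive interaction had a median length of 1564 bases, those with a negative interaction 2201 and all these genes 2460. Of the 1510 genes over 5000 bases, 2 were called positive and 15 negative, and of the 1149 genes up to 1000 bases, 30 and 22. The slope of a library's log2 level on gene length ranged from -0.048 to 0.038 per doubling of length over the 16 libraries. The group means of that slope were -0.013 ± 0.027 for Saline-Saline, 0.012 ± 0.035 for LPS-Saline, 0.0038 ± 0.016 for Saline-Heroin and -0.0036 ± 0.028 for LPS-Heroin (SD, n = 4), so the groups overlapped. With the length trend taken off each library, 337 genes were called, 151 positive and 186 negative, and the positive share was 44.8% in place of 54.7%. Of the named genes, Ppih, Zfp580, Sirt2, Cx3cr1, Arhgap32, Adgrl3 and Cacna1c were no longer called. The list medians then were 0.00 for chromatin enzymes (from -0.07), -0.02 for calcium, sodium and HCN channels (from -0.06), -0.07 for postsynaptic scaffolds and adhesion and -0.11 for medium spiny neurons. The part of library length slopes in the interactions was not tested further.

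**Figure D5:**
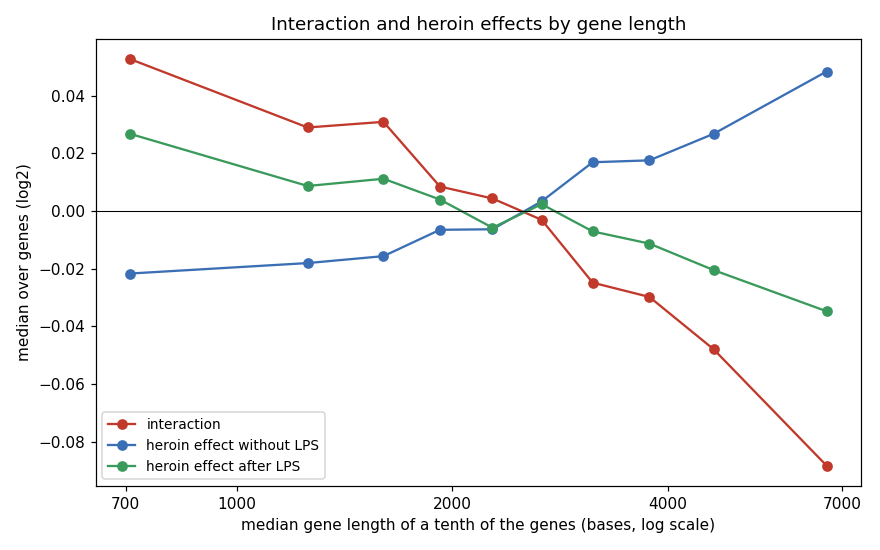
Median over genes (vertical axis, log2) of the interaction, the heroin effect without LPS and the heroin effect after LPS in 10 equal groups of genes ordered by length (horizontal axis, bases, log scale), for genes with at least 50 reads. The interaction is 0.05 in the shortest and -0.09 in the longest genes, and the heroin effect is higher in longer genes without LPS and lower in longer genes after LPS.

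The self-administering rats gave a heroin effect in separate libraries. Over the 191 genes called positive, Heroin-SA minus Saline-SA was negative in 115 (60.2%, median -0.07), against 57.1% of all genes with a positive interaction and 48.1% of all genes tested. Over the 158 genes called negative it was positive in 111 (70.3%, median 0.21), against 60.5% of all genes with a negative interaction and 51.8% of all genes tested. Chchd10 was lower in Heroin-SA than in Saline-SA in the mean, although it was higher in Saline-Heroin than in Saline-Saline. These shares are counts over genes of the same libraries, and no test was made of them.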

How the data were processed

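The interaction was measured on poly-A selected, directional RNA-seq libraries made from 300 ng of NAc RNA of single rats, 4 biological replicates per group, with groups taken from the sample titles. According to the submitters' processing notes, the authors trimmed reads with fastp, aligned them to rn6 with HISAT2 and counted genes with featureCounts. Versions, annotation and the strand setting of the counting are not given in the sources used here. The authors deposited FPKM per gene and library. Dividing each value by that of 1 read gave whole reads for 100% of the values (tolerance 0.1), which supplied read counts and depths. The study's methods state more sequenced samples per group than the 4 analysed here.

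Genes with a mean of at least 0.5 FPKM over the 16 libraries were fitted as log2(FPKM + 0.1) by group with limma 3.58.1 (R 4.3.3, two-sided moderated test with trend, Benjamini-Hochberg over all genes). This scale understates changes of low genes. A gene was called at an unadjusted p of at most 0.05 and at least 1.3-fold, the limits of the study's pattern analyses. Named genes were, per side, the 12 called genes with the smallest p and, of the rest, the 3 with the largest interaction, among those with at least 50 mean reads and a gene symbol that is neither a clone or locus number nor a small RNA, plus all called list members. The genes and lists were chosen with earlier results of these data known. P-values measure the spread between the rats of a group. Deviations of same-numbered libraries correlated from -0.281 to 0.313 over 24 pairs (median -0.0194), so numbers were not taken as pairs. Promoters came from RefSeq (GRCr8), matched by symbol. Alternatives covered pseudocounts 1 and 0.01, filters, normalization, limma-voom on recovered reads, a replicate block and leaving out each library. A filter of at least 10 reads and removal of the length trend were added after the data were seen. For the gene lists, equal library medians, the replicate block and leaving out each library were also added then.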

Additional observations from a re-analysis of the deposited data

Results flagged for a closer look

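Within groups of 4 libraries, a single library far from the other 3 (by Dixon's criterion at 95%) was found in 26 of the 360 groups examined, where chance gives about 1 in 20. This count pools named genes and lists, so it shows no excess for either alone. All groups reuse the same 16 libraries, so the flags are not independent of each other. Of the 26 flags, 10 concerned named genes. Srebf1 was at 25.47 FPKM in Saline-Saline replicate 1 and at 21.16 to 21.78 in the others. Lrrc23 was at 1.879 FPKM in Saline-Heroin replicate 4, against at most 0.4064 in the others. In LPS-Heroin replicate 2, Bivm was at 10.71 FPKM (others 9.313 to 9.504) and Epha6 at 8.469 FPKM (others 6.578 to 6.855), in both cases closer to the single treatments than the other 3 libraries. Cox5b was at 390.4 FPKM in LPS-Saline replicate 2 (others up to 281.3) and at 239.6 in LPS-Heroin replicate 1 (others from 393). Opalin was at 96.91 FPKM in LPS-Saline replicate 1, Chordc1 at 35.11 in Saline-Heroin replicate 3, Kcnj2 at 10.83 in Saline-Saline replicate 3 and Ankrd33b at 2.784 in Saline-Saline replicate 1, the last below the others and the rest above.

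The other 16 concerned mean log2 levels of gene lists. LPS-Saline replicate 4 stood apart in 5 of them. It was high in fibroblasts and mural cells (3.183), heat shock and chaperones (5.259), interferon-stimulated genes (1.304) and nuclear-encoded OXPHOS (7.228), and low in chromatin enzymes (3.566). LPS-Heroin replicate 4 was low in oligodendrocytes and myelin (5.919) and high in antigen presentation (1.214) and complement (2.881). Saline-Heroin replicate 2 was high in the septum and ventral forebrain list (3.297) and in GABA-A receptors (4.286). Single flags were microglia in Saline-Saline replicate 2 (3.815), the circadian clock in Saline-Saline replicate 3 (4.265), dopamine and monoamine genes in LPS-Saline replicate 3 (2.573), synaptic vesicle release in LPS-Heroin replicate 2 (5.53), chromatin enzymes in Saline-Heroin replicate 3 (3.707) and mitochondrial-encoded OXPHOS in LPS-Heroin replicate 1 (11.7). No cause was tested.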

How the results depend on the processing

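No called gene changed sign under any alternative, but which genes were called depended on single libraries. Without 1 library at a time the interaction called 292 to 447 genes (158 to 238 positive, 128 to 243 negative), and 119 of the 349 genes (65 positive and 54 negative) were called in all 16 such fits. The highest negative count came without LPS-Heroin replicate 2 and the lowest without LPS-Heroin replicate 3, where 1 gene had an adjusted p under 0.05 in limma. Of the 49 named genes, 34 to 46 stayed called. The heroin effect without LPS was called in 348 to 700 genes (700 without Saline-Heroin replicate 2) and that after LPS in 277 to 428. The number of lists with a positive median was 7 to 15, with 7 without LPS-Heroin replicate 4. The r of the heroin effects was 0.0376 to 0.109 and of the LPS effects 0.0228 to 0.111. Without a filter on low values 565 genes were called (307 positive and 258 negative, of 22169 tested) and 2 genes had an adjusted p under 0.05 in limma (smallest 0.0188), and with the p limit alone 607 (324 and 283). Equal library medians moved the positive share to 60.7%. The replicate block called 346 genes (176 positive and 170 negative, 296 of the 349), and 5 of 16 libraries correlated best with their own number. limma-voom called 337 genes, with 574 at an unadjusted p under 0.05, and an FPKM minimum of 1 called 292. The causes were not tested. With 4 rats per group, the median SE was 0.16 among genes with at least 50 reads, and interactions under 1.3-fold could not be called by the rule. The smallest adjusted p of these genes in limma was 0.992, so larger interactions were not established either.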

Other observations

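Gene lists not described above gave the following median interactions on the log2 scale. Among neuronal functions they were -0.04 (7 of 18 positive) for ionotropic glutamate receptors, -0.07 (1 of 7 positive) for metabotropic glutamate receptors, -0.06 (11 of 32 positive) for calcium, sodium and HCN channels, -0.08 (5 of 12 positive) for dopamine and monoamine genes, -0.14 (9 of 21 positive) for neurotrophic factors and receptors, and -0.08 (6 of 17 positive) for interneuron and neuropeptide markers. Markers of cortical glutamatergic neurons had -0.05 (7 of 17 positive), with median heroin effects of 0.17 without LPS and 0.44 after LPS. The difference of these medians need not equal the median interaction, and the mean log2 level had a positive interaction of 0.125 ± 0.379 (SE). Without single libraries the median interaction ran from -0.22 (without LPS-Saline replicate 3) to 0.24 (without Saline-Saline replicate 3), so the list had no settled direction. The median turned positive at 0.16 for dopamine and monoamine genes without Saline-Saline replicate 1, at 0.07 for neurotrophic factors without LPS-Saline replicate 4, at 0.04 for metabotropic glutamate receptors without LPS-Saline replicate 3 and at 0.01 for ionotropic glutamate receptors without LPS-Heroin replicate 3. The called genes of these lists were Cacna1c and Gch1.

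Among housekeeping and stress functions, the medians were -0.12 (4 of 16 positive) for heat shock and chaperones, -0.10 (5 of 18 positive) for the circadian clock, -0.07 (16 of 43 positive) for chromatin enzymes, -0.02 (8 of 18 positive) for the integrated stress response, -0.09 (11 of 29 positive) for collagens and matrix, -0.12 (3 of 14 positive) for YAP and TGF-beta targets and 0.04 for the choroid plexus (4 of 7 positive). The choroid plexus median was -0.54 without Saline-Saline replicate 1 and 1.00 without LPS-Saline replicate 4, and those of collagens and of the integrated stress response turned positive (0.01 and 0.05) without LPS-Saline replicate 4 and Saline-Saline replicate 3. Chordc1, Phgdh, Hdac6, Sirt2 and Kcne2 were the called genes of these lists.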
